A study of Mus musculus with 6 samples.

Results

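Il7r, Kit, Cxcr4, Cd44, Itga4, Itgb1, Il2rg, Crlf2 and Ptprc encode receptors and homing molecules with which lymphoid progenitors receive growth signals and keep their place in the bone marrow. These 9 genes were taken by name from the 22028 protein-coding genes of the GENCODE M21 annotation of mouse genome mm10, and CDK6 occupancy was examined at their promoters, over their gene bodies and in 20000 bp to each side. CDK6 was localised by ChIP-seq in BCR::ABL1 (p185) transformed murine pre/pro-B cell lines in which the endogenous Cdk6 gene was absent (Cdk6 -/-). The lines were derived from bone marrow of C57BL/6 mice and carried a retroviral copy of CDK6 with an HA tag, either wildtype (CDK6-WT, n = 2 libraries) or with the K43M change that inactivates the kinase (CDK6-K43M, n = 2 libraries). Both tagged proteins were overexpressed from a pMSCV vector, all libraries were precipitated with an antibody against HA, and no library from cells without a tagged protein was analysed here. The comparison of the variants asks whether the kinase activity of CDK6 is needed for it to occupy these genes. Whether the libraries of a variant came from separate lines or cultures is not given in the sources used here, so that p-values measure only the spread between these samples, which may be technical.

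By way of background, CDK6 is a cell cycle kinase that has no DNA-binding domain of its own and reaches chromatin through other proteins. B-cell precursors depend on interleukin-7, which is read by the IL-7 receptor alpha chain (Il7r) together with the common gamma chain (Il2rg), while Crlf2 pairs with the same alpha chain to bind TSLP. Kit is the receptor for stem cell factor, Cxcr4 binds the stromal chemokine CXCL12, Cd44 binds hyaluronan, the integrin chains alpha4 (Itga4) and beta1 (Itgb1) form VLA-4, and Ptprc encodes CD45, a phosphatase of nearly all leukocytes. BCR::ABL1 is a constitutively active tyrosine kinase that relieves B-cell precursors of their need for cytokine.

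A peak list was analysed for each of the 4 anti-HA libraries, with between 34729 and 39797 peaks per list and a lowest −log10 q between 1.31 and 1.34. The lists give no read totals, but the fold enrichment and p-value of a peak together gave the number of reads at its summit, which had a median between 15 and 23 reads per list and was never below 7. Peak strength is given below as the percentile of −log10 q within the peak's own list, since −log10 q itself grows with depth. Over the whole series, 56748 merged regions were found, of which 7357 were held by both replicate 1 lists and neither replicate 2 list and 6263 by the reverse pair, against 204 unique to CDK6-WT and 714 unique to CDK6-K43M. What the replicate number marks is not given in the sources used here. The lineage given in the labels was set beside marker genes by promoter occupancy, which is not an expression level. All 7 B lineage markers (Cd79a, Cd79b, Vpreb1, Igll1, Pax5, Ebf1 and Blnk) had a promoter peak in all 4 lists, whereas 5 of 6 T lineage, 5 of 6 myeloid and 5 of 5 erythroid markers had none in any list, the exceptions being Cd5 and Lyz2. Of all protein-coding genes, 33.2% had a promoter peak in all 4 lists and 39.4% to 48.5% in each single list. The share with none in any list was not counted.

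Sequences around summits are shown for 6 member regions, because the comparisons that follow turn on them, the Il7r promoter beside the stronger upstream region of the same gene. They are on the plus strand of mm10 (RefSeq GRCm38.p6), extend up to 100 bases either way from the strongest summit, and leave out bases annotated as untranslated region. Capitals mark a match to a motif that was searched on both strands. Il7r and Cxcr4 regions carry the RUNX hexamer TGTGGT, which reads ACCACA where it lies on the minus strand, the Itga4 region carries the PU.1 sequence GAGGAAGT, the Crlf2 region carries an SP1 box and E-boxes, and the Ptprc region matched none of the 12 motifs.
Il7r promoter, chr15:9529836-9529972, upstream of the protein-coding starts and in an intron of a longer noncoding transcript: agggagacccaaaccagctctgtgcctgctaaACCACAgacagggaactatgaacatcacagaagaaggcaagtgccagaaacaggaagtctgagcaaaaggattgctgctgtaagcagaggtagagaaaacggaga
Il7r upstream region, chr15:9549064-9549264, upstream of the gene: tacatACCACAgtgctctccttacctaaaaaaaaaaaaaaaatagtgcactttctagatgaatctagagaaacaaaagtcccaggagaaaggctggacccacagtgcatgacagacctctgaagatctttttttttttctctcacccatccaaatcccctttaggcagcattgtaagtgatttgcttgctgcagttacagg
Cxcr4 upstream region, chr1:128608151-128608351, upstream of the gene: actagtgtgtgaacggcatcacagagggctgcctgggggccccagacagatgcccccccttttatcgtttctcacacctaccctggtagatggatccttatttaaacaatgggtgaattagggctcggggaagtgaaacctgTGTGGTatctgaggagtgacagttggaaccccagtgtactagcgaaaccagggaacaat
Itga4 promoter, chr2:79254701-79254901, upstream of the first transcript start: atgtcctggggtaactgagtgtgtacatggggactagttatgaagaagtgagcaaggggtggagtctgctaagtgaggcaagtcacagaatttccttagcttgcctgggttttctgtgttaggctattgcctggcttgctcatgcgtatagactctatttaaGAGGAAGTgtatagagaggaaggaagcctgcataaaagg
Crlf2 internal promoter, chr5:109557492-109557687, around a coding exon: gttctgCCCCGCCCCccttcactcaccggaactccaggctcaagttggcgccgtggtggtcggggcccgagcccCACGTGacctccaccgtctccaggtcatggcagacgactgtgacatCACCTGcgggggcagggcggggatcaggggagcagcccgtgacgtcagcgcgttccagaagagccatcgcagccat
Ptprc intronic region, chr1:138136562-138136762, intron: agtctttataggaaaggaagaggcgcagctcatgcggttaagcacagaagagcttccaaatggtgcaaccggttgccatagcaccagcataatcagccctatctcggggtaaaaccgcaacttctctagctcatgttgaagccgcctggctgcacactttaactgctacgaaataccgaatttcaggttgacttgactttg

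CDK6 occupied most of these genes in both variants. Promoter windows began 2000 bp upstream of each annotated transcript start and ended 200 bp downstream of it, and a peak in 3 or more of the 4 lists made a region bound by both. By this definition 7 of the 9 promoters were bound by both (Il7r, Cxcr4, Itga4, Itgb1, Il2rg, Crlf2 and Ptprc), against a background of 41.3% of all protein-coding genes, and 5 of 9 had a peak in all 4 lists against 33.2%. Promoter peaks were present for 7 of the 9 genes in CDK6-WT replicate 1, 8 in CDK6-WT replicate 2, 7 in CDK6-K43M replicate 1 and 6 in CDK6-K43M replicate 2, where the shares of all genes were 47%, 40.1%, 48.5% and 39.4%. The genes thus had promoter peaks more often than the background in each library, while Kit had none in any list and Cd44 had peaks in the replicate 2 lists alone.

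Over the 9 loci, which together span 807 kb, 64 merged regions were found. Of these, 23 were bound by both variants, 16 of them with a peak in all 4 lists, and 24 were held by 1 list, of which 12 came from CDK6-K43M replicate 2. Of the 56748 regions of the whole series, 22979 were bound by both, 16381 had a peak in all 4 lists and 18482 were held by 1 list. Sharing between the lists was thus no more frequent at these loci than over the series. No region was unique to CDK6-WT and 1 was unique to CDK6-K43M, at Itgb1, against 1.29% and 4.33% of all protein-coding loci with such a region. Regions in both lists of a replicate number and neither of the other were more frequent, with 5 for replicate 1 and 9 for replicate 2. At least 1 region of the replicate 1 kind lay at 3 of the 9 loci (Crlf2, Il2rg and Ptprc) against 34% of all loci, and at least 1 of the replicate 2 kind at 4 of the 9 (Cd44, Il7r, Itga4 and Ptprc) against 18.5%. These shares are over loci of every length, and a longer locus has more room for a region. The loci of Cd44, Itga4 and Ptprc span 131, 118 and 153 kb, and no share for such lengths was counted here. By position, 13 of the 64 regions overlapped a promoter, 22 lay in the rest of a gene body and 29 in the flanks, and 9, 7 and 7 of these were bound by both. Within the 16 regions in all 4 lists, the summits of the 4 libraries lay within a median of 115 bp of each other (range 24 to 1861 bp). Regions in 1 list were mostly weaker than those bound by both, with a median percentile of 26.4 (range 9.30 to 67.7) against a median mean percentile of 72.3 (range 28.0 to 95.5). Peaks near the threshold of a list are more easily missed in another, so that the classes are not independent of strength.

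**Figure D1:**
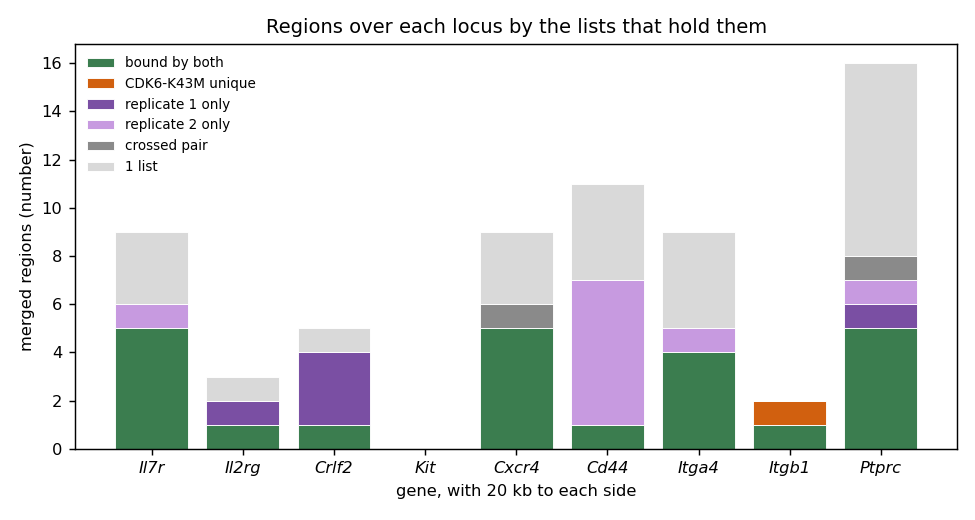
Number of merged regions (y axis) over each gene with 20 kb to each side (x axis), coloured by the lists that hold a peak. Ptprc holds the most regions (16), Kit holds none, 6 of the 11 regions at Cd44 were seen in the replicate 2 lists alone and 3 of the 5 at Crlf2 in the replicate 1 lists alone.

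Among the cytokine receptors, Il7r (ENSMUSG00000003882.5, chr15:9505788-9530176, minus strand) had the most regions. Its locus held 9 regions, 5 of them bound by both, with 4 and 7 peaks with CDK6-WT and 5 and 9 with CDK6-K43M. The strongest promoter peak reached the percentile 44.6 in CDK6-WT replicate 1, 96.5 in CDK6-WT replicate 2, 79 in CDK6-K43M replicate 1 and 97.1 in CDK6-K43M replicate 2. Both replicate 2 values thus lay above both replicate 1 values, and the variants overlapped. At that summit the reads numbered 27 (95% exact Poisson interval 17.8 to 39.3), 54 (40.6 to 70.5), 40 (28.6 to 54.5) and 52 (38.8 to 68.2) in the same order, with fold enrichments of 4.53, 10.1, 8.71 and 10.7. Such intervals cover counting error alone, and read numbers are not corrected for depth.

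The strongest region at Il7r outside the promoter was the upstream one printed above, with its summit at -18988 bp from the gene start. It ranked at the percentile 91.7, 99.2, 84.7 and 98.1 in CDK6-WT replicates 1 and 2 and CDK6-K43M replicates 1 and 2, with 46, 58, 40 and 46 reads at the summit. No list placed it in the weaker part of its peaks, and its summits lay within 100 bp of each other. An intronic region at 1774 bp from the start behaved differently, with the percentiles 5.05 and 91.1 with CDK6-WT and 3.33 and 86.2 with CDK6-K43M. The replicate 1 and replicate 2 values of this intronic region were far apart, while the variants of the same number were close. Downstream of the gene, a region at 37870 bp was in all 4 lists at the percentiles 75.5, 62.9, 74.5 and 76.5, and a region at 35093 bp was missing from CDK6-WT replicate 1.

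Il2rg (ENSMUSG00000031304.18, chrX:101264378-101268255, minus strand), the gamma chain that Il7r signals with, had a promoter peak below the middle rank of each list that held it. Its promoter region covered the annotated 5′ untranslated exon at 59 bp from the gene start and ranked at the percentile 43.5 in CDK6-WT replicate 1, 25.5 in CDK6-WT replicate 2 and 15 in CDK6-K43M replicate 1, with no peak in CDK6-K43M replicate 2. Reads at the summit numbered 19 (11.4 to 29.7), 13 (6.92 to 22.2) and 15 (8.40 to 24.7), and these intervals overlapped. The lists themselves had medians between 15 and 23 reads, and a missing peak in CDK6-K43M replicate 2 gives no value below the threshold of that list. The other regions at this locus, at -5825 bp and 14166 bp, overlapped the promoters of the neighbouring genes Med12 and Foxo4.

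At Crlf2 (ENSMUSG00000033467.12, chr5:109554709-109558993, minus strand), the TSLP receptor chain, the replicate numbers stood far apart. The internal promoter region printed above ranked at the percentile 96.3 in CDK6-WT replicate 1 and 97.6 in CDK6-K43M replicate 1, but at 0.279 in CDK6-WT replicate 2, and CDK6-K43M replicate 2 had no peak. The peaks spanned 1417 bp and 1441 bp in the replicate 1 lists and 196 bp in CDK6-WT replicate 2, with 48, 64 and 10 reads at their summits. This region counts as bound by both through its overlap with the promoter window of a start at position 109556473. The more upstream starts, at 109558936 and 109558993, had promoter peaks in the replicate 1 lists alone, a pattern that 5.67% of all protein-coding genes showed at their promoters as a whole. The peak numbers of the locus followed the same split, with 4 and 1 with CDK6-WT and 5 and 0 with CDK6-K43M.

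Kit (ENSMUSG00000005672.12, chr5:75574916-75656722, plus strand), the receptor tyrosine kinase for stem cell factor, had no peak over a locus of 122 kb. The nearest peak upstream of the gene lay 418 kb away in CDK6-WT replicate 1, 530 kb in CDK6-WT replicate 2, 418 kb in CDK6-K43M replicate 1 and 631 kb in CDK6-K43M replicate 2. Downstream, the distances were 483 kb, 392 kb, 462 kb and 484 kb. Kit and the neighbouring receptor gene Kdr were the 2 protein-coding genes inside a stretch of 891 kb (chr5:75157323-76048271) without a peak in any list. Loci without a peak made up 26.6% of all protein-coding loci and 13.9% of the 2042 loci of 100 to 150 kb, the length class of Kit, and 10.9% of protein-coding genes lay inside a peak-free stretch at least as long as this one. A peak list gives no value for occupancy below its threshold, and the smallest called summits had between 7 and 9 reads, so that the result at Kit is that no peak was detectable at this depth.

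Cxcr4 (ENSMUSG00000045382.6, chr1:128588199-128592293, minus strand), the chemokine receptor that retains precursors in the marrow, was occupied mostly upstream of a short gene. Of its 9 regions, 5 were bound by both, and the lists held 7, 5, 7 and 7 peaks. The promoter region over the 5′ untranslated exon ranked at the percentile 62.8 and 71.4 with CDK6-WT and at 49.4 and 33.6 with CDK6-K43M, so that both CDK6-WT values lay above both CDK6-K43M values. Reads at the summit numbered 27 (17.8 to 39.3), 22 (13.8 to 33.3), 26 (17.0 to 38.1) and 16 (9.15 to 26.0), and these intervals overlapped. The peak of CDK6-K43M replicate 2 had its summit at -352 bp from the gene start, whereas the strongest summits of the other libraries lay between -34 and 18 bp. CDK6-WT replicate 1 also had a weaker peak with its summit at -407 bp, at the percentile 23.3 with 13 reads. The values of CDK6-K43M replicate 2 thus belong to another position than those set beside them. The −log10 q was 13.3 and 11 with CDK6-WT against 9.0 and 5.01 with CDK6-K43M, so that at a minimum −log10 q of 10 this promoter was the 1 member region unique to CDK6-WT.

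The strongest Cxcr4 region was at -15958 bp from the gene start, with the percentiles 78.1, 94.3, 95.9 and 82.0 and 35, 38, 65 and 23 reads at the summit. High and low values did not follow the variant or the replicate number here. Regions at -9325 bp and at 1338 bp, the latter in the intron, were also in all 4 lists, at percentiles between 56.1 and 87.9 and between 57.4 and 85.3. A region at -10946 bp was missing from CDK6-WT replicate 2 and ranked at 64.6 in CDK6-WT replicate 1 and at 57.2 and 64.0 with CDK6-K43M. The locus therefore held several regions with a higher mean percentile than the promoter (54.3).

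Cd44 (ENSMUSG00000005087.17, chr2:102811141-102901665, minus strand), the hyaluronan receptor, was occupied almost entirely in the replicate 2 libraries. CDK6-WT replicate 1 had no peak at the locus and CDK6-K43M replicate 1 had 1, against 9 in each replicate 2 list. At the promoter, CDK6-WT replicate 2 had a peak at the percentile 50.1 with 16 reads (9.15 to 26.0) and CDK6-K43M replicate 2 at 7.80 with 9 reads (4.12 to 17.1), and 1.28% of all protein-coding genes had promoter peaks in both replicate 2 lists and neither replicate 1 list. The strongest region within each replicate 2 list was in an intron at 33732 bp from the gene start. This intronic region ranked at 93.3 in CDK6-WT replicate 2 and 97.0 in CDK6-K43M replicate 2, but at 15.5 in CDK6-K43M replicate 1. It held 33, 38 and 21 reads in these libraries. A run of 3 regions between -3731 and -2335 bp and a region at 106454 bp, downstream of the gene, had the same list pattern as the promoter. The last of these ranked at 79.3 in CDK6-WT replicate 2 and 87.9 in CDK6-K43M replicate 2, above the promoter peaks of the same lists.

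Itga4 (ENSMUSG00000027009.18, chr2:79255426-79333123, plus strand), the alpha chain of VLA-4, had the promoter region with the highest mean percentile (90.6) among the 9 genes. Its 9 regions lay between -5986 and 4227 bp from the gene start, and 3 of the 4 that were bound by both overlapped the promoter. The region at -625 bp, printed above, ranked at the percentile 84.7 and 98.8 with CDK6-WT and at 80.6 and 98.5 with CDK6-K43M. Summit reads were 39 (27.7 to 53.3), 51 (38 to 67.1), 48 (35.4 to 63.6) and 49 (36.3 to 64.8), with fold enrichments of 9.71, 18.5, 7.99 and 16.8. The read numbers were alike, whereas the fold enrichments and percentiles were higher in both replicate 2 libraries, where the local background stood at 1.73 and 1.98 reads against 3.09 and 4.93 in replicate 1. Next to it, a region that reached from upstream of the gene into the gene body ranked at 81.0, 97.8, 76.2 and 96.5, with its strongest summits up to 1861 bp apart between libraries.

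Itgb1 (ENSMUSG00000025809.15, chr8:128685654-128733200, plus strand), the beta chain of the same integrin, held only 2 regions. The promoter region at -565 bp ranked at the percentile 30.0 and 79.4 with CDK6-WT and at 65.3 and 77.0 with CDK6-K43M, with 14 (7.65 to 23.5), 23 (14.6 to 34.5), 25 (16.2 to 36.9) and 21 (13.0 to 32.1) reads. CDK6-WT replicate 1 stood apart as the low value, and the other 3 lay close together. The region unique to CDK6-K43M (chr8:128686203-128686465) was in an intron at 682 bp from the gene start. It was weak, at the percentile 7.92 with 13 reads (6.92 to 22.2) in replicate 1 and 23.5 with 11 reads (5.49 to 19.7) in replicate 2, and it was joined with the promoter region when peaks within 500 bp were merged. Itga4 and Itgb1 encode partner chains, and their loci thus differed in the number of regions, 9 against 2.

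Ptprc (ENSMUSG00000026395.16, chr1:138062861-138175708, minus strand), which encodes CD45, had the most regions, 16 over a locus of 153 kb, of which 5 were bound by both and 8 were in 1 list. Its strongest region, the intronic one printed above at 39046 bp from the gene start, had the highest mean percentile (95.5) of all 64 regions. It ranked at 96.1 and 94.6 with CDK6-WT and at 94.1 and 97.1 with CDK6-K43M, with 54, 48, 60 and 41 reads at the summit, so that the 4 libraries differed little. A further intronic region at 29950 bp ranked at 59.0 and 99.5 with CDK6-WT and at 64.8 and 99.8 with CDK6-K43M, with 22, 66, 28 and 73 reads. There the replicate numbers stood apart and the variants did not. A region close by, at 26734 bp, was missing from CDK6-WT replicate 1 and ranked at 97.9 in CDK6-WT replicate 2 and at 58.1 and 84.4 with CDK6-K43M. Upstream, a region at -16077 bp, which also overlapped the promoter of the gene Gm28556, ranked at 79.9, 97.2, 97.0 and 96.1.

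The Ptprc promoter region itself was of middle rank, with the percentile 64.2 and 62.2 with CDK6-WT and 46.7 and 52.0 with CDK6-K43M. Reads at the strongest summit of each library numbered 24 (15.4 to 35.7), 23 (14.6 to 34.5), 21 (13.0 to 32.1) and 14 (7.65 to 23.5). These summits lay at 391, 382, 355 and 797 bp from the gene start. The last, of CDK6-K43M replicate 2, was outside the promoter windows, although its peak overlapped them. Both CDK6-WT percentiles were above both CDK6-K43M percentiles, while the intervals of the reads overlapped. The fold enrichments were 7.73 and 5.54 with CDK6-WT and 5.91 and 5.84 with CDK6-K43M, so that by this measure CDK6-WT replicate 2 was the lowest and the groups overlapped.

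**Figure D2:**
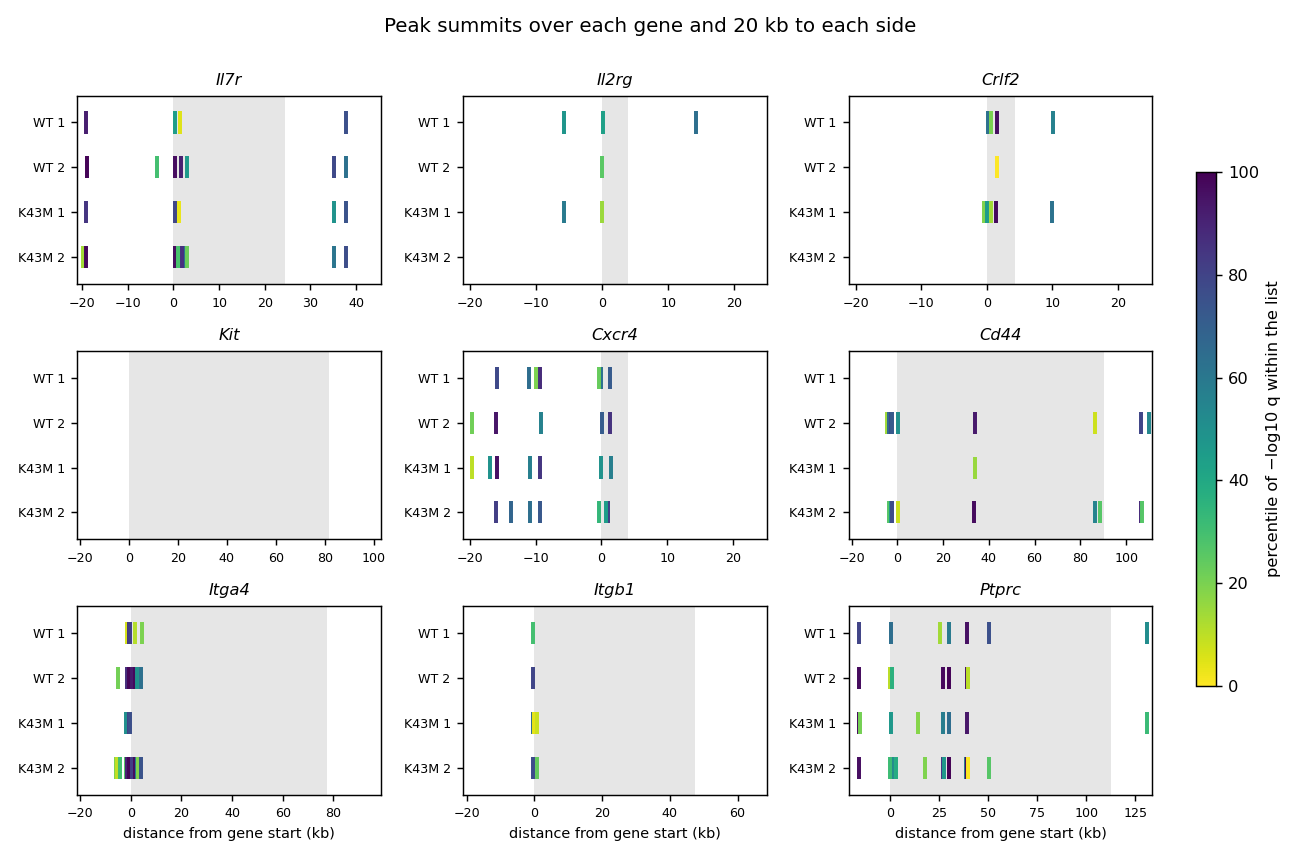
Position of each peak summit (x axis, distance from the gene start in kb, negative upstream) in each of the 4 libraries (rows of each panel) for the 9 genes, coloured by the percentile of −log10 q, with the gene body in grey. The Kit panel is empty, Cd44 is occupied in the replicate 2 rows apart from 1 peak of CDK6-K43M replicate 1, and Crlf2 is occupied mainly in the replicate 1 rows.

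The variants were compared by the strongest promoter peak of each gene, for the 5 genes with a promoter peak in all 4 lists. With 2 libraries against 2, the exact two-sided permutation test over the 6 assignments cannot give a p below 0.33, so that no difference could reach a threshold of 0.05. At Cxcr4 the percentile was 67.1 ± 6.05 in CDK6-WT and 41.5 ± 11.2 in CDK6-K43M (SD, n = 2 each), a difference of -25.6 (exact permutation p = 0.333), with -13.5 within replicate 1 and -37.8 within replicate 2. Ptprc differed by -13.8, from 63.2 ± 1.44 to 49.4 ± 3.71 (exact permutation p = 0.333), with -17.4 and -10.2 within the replicate numbers. By −log10 q, the groups did not overlap at these 2 genes and the direction was the same within both numbers. At both genes, however, the strongest summit of CDK6-K43M replicate 2 lay apart from those of the other libraries. The differences therefore compare peaks at unlike positions. Any gene whose groups do not overlap gets this smallest exact permutation p of 0.333. The share of all promoters with such a split was not counted, so that it does not set these 2 genes apart. With peaks ranked by fold enrichment in place of −log10 q, the difference was -31.7 at Cxcr4 (exact permutation p = 0.333) but -2.43 at Ptprc (exact permutation p = 0.667), where the groups then overlapped.

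At the other genes the difference was smaller than the spread between replicates or changed with the library. Il7r had 70.6 ± 36.7 in CDK6-WT and 88.0 ± 12.8 in CDK6-K43M, a difference of 17.5 (exact permutation p = 0.667), with 34.4 within replicate 1 and 0.569 within replicate 2, and it turned to -8.48 when CDK6-WT replicate 1 was left out. Itgb1 differed by 16.5 (54.7 ± 34.9 against 71.2 ± 8.27, exact permutation p = 1), with 35.3 and -2.36 within the numbers and -8.20 without CDK6-WT replicate 1. Itga4 differed by -2.17 (91.7 ± 9.98 against 89.6 ± 12.7, exact permutation p = 0.667), with -4.09 and -0.247 within the numbers, and was 4.89 without CDK6-WT replicate 2 and 6.81 without CDK6-K43M replicate 1. Over all 7312 genes with a promoter peak in all 4 lists, the median difference between the variants was 0.546, with quartiles of -6.92 and 8.19, so that Cxcr4 and Ptprc lay below the lower quartile and Il7r and Itgb1 above the upper quartile. No test places these genes apart from the others. Cd44, Il2rg and Crlf2 had no promoter peak in at least 1 list and allow the comparison within 1 replicate number, which gave -42.3 at Cd44 in replicate 2, and -28.5 at Il2rg and 1.35 at Crlf2 in replicate 1.

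**Figure D3:**
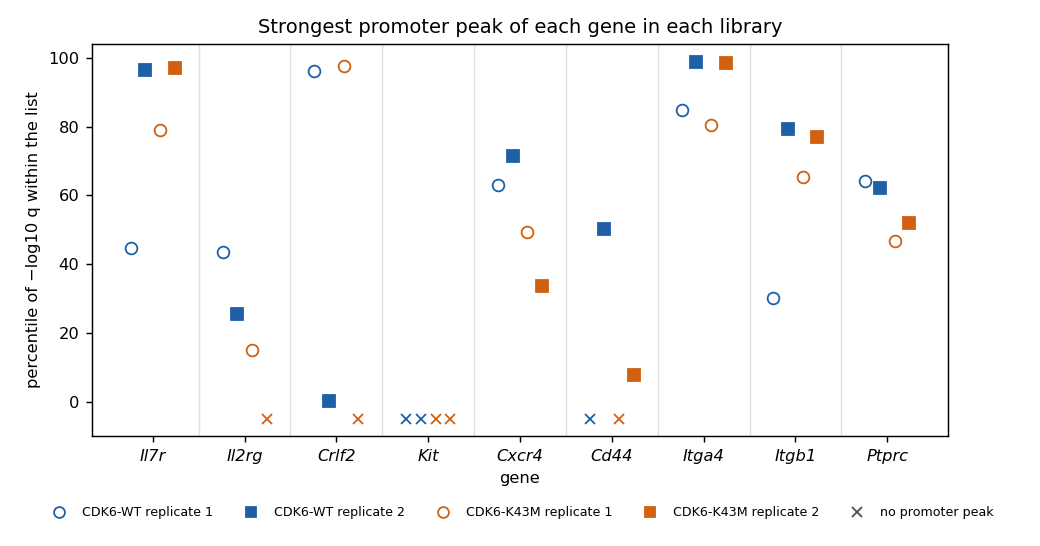
Percentile of −log10 q within the list (y axis) of the strongest promoter peak of each gene (x axis), with open circles for replicate 1, filled squares for replicate 2, blue for CDK6-WT, orange for CDK6-K43M and crosses for no peak. CDK6-WT lies above CDK6-K43M at Cxcr4 and Ptprc, and both replicate 2 libraries lie above both replicate 1 libraries at Il7r, Itga4 and Itgb1. The share of all promoters with either split was not counted, so that neither split sets these genes apart.

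At the 5 genes with a promoter peak in all 4 lists, the replicate numbers mostly differed in the direction opposite to that of most promoters. The strongest promoter peak ranked higher in replicate 2 than in replicate 1 at 4 of the 5 genes (Il7r by 35.0, Itgb1 by 30.5, Itga4 by 16 and Ptprc by 1.60 percentile points), and lower at Cxcr4, by -3.61. The median over the 5 genes was 16, whereas over all 7312 genes it was -20.8, with quartiles of -35.6 and -7.27, so that all 5 lay above the upper quartile of that distribution. Crlf2 and Il2rg, which are outside this count for want of a peak in CDK6-K43M replicate 2, ranked lower or had no peak in replicate 2 (96.3 against 0.279 and 43.5 against 25.5 with CDK6-WT, 97.6 and 15 against no peak with CDK6-K43M), whereas Cd44 had promoter peaks in replicate 2 alone. Regions of any position were described in the same way. Those in all 4 lists lay at the same 5 genes (Il7r, Cxcr4, Itga4, Itgb1 and Ptprc) and include the promoter regions just given. They are therefore neither a separate observation nor independent of each other. Of the 16 member regions in all 4 lists, 13 (81.3%) ranked higher in replicate 2, with a median difference of 13.2, against 43.2% and a median of -5.63 for all 16381 regions in all 4 lists. Between the variants, the same 16 regions had a median difference of 1.5, beside 1.65 for all regions. The absolute difference had a median of 17.3 percentile points between the replicate numbers and 6.49 between the variants at these regions, and of 21.6 and 8.12 over all regions.

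**Figure D4:**
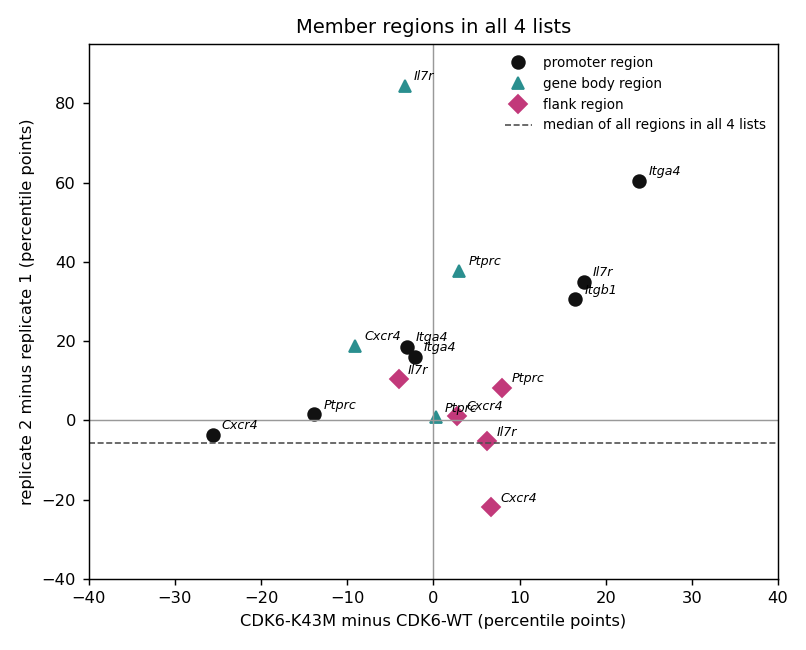
Difference in percentile between the replicate numbers (y axis) against the difference between the variants (x axis) for the 16 member regions in all 4 lists, with symbols for promoter, gene body and flank. Most points lie above the dashed line, the median of -5.63 over all regions, and the widest spread is along the replicate axis, up to 84.5 percentile points at the intronic Il7r region.

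Base composition and motifs were described in windows of 201 bp at the summits, as features that the choice of genes did not use. Member regions bound by both had a median GC content of 48.3% and 2 CpG dinucleotides, below the 54.2% and 5 of all regions bound by both. The 9 regions in the replicate 2 lists alone had 44.8% and 1 CpG, and the 5 in the replicate 1 lists alone had 53.2% and 8, in the same order as over the whole series, where the former had 47.8% and 2 and the latter 52.7% and 4. The part of base composition in the replicate differences was not tested. At Crlf2 the internal promoter region had 67.7% GC and 16 CpG and the 3 regions in the replicate 1 lists alone had 43.8% to 64.7% and 6 to 19, and at Itgb1 the region unique to CDK6-K43M had 61.7% and 17.

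Of the 23 member regions bound by both, 7 held the E-box CAGCTG (30.4%, against 19.7% of all 22975 such regions with a window on an assembled chromosome), at Il7r, Itga4, Il2rg and, with 2 each, at Cxcr4 and Ptprc. RUNX (TGTGGT) was present in 6 (26.1% against 20.7%), of which 3 were at Il7r and 1 each at Cxcr4, Itga4 and Ptprc. PU.1 (GAGGAAGT) was present in 3 (13.0% against 6.33%), at Cxcr4, Itga4 and Ptprc, the latter in the intronic region at 29950 bp. Of the motifs typical of CpG-rich promoters, the ETS sequence CCGGAAGT was found in 0 of 23 (3.80% of all), NFY (CCAAT) in 1 (4.35% against 19.7%), SP1 (GGGGCGGGG) in 1 (4.35% against 5.76%) and NRF-1 (GCATGCGC) in 1, at the Cxcr4 promoter (4.35% against 2.53%). EBF (TCCCNNGGG) was found in 0 (11% of all), CAGGTG in 2 (8.70% against 15.5%), the MYC E-box CACGTG in 2 (8.70% against 6.43%), AP-1 (TGANTCA) in 2 (8.70% against 7.15%) and STAT (TTCNNNGAA) in 1 (4.35% against 7.53%). With 23 regions each share moves by several percentage points with a single region, a match is not a bound site, and the absence of these letters from a window says nothing about the factor.

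The ligands of the 9 receptors seldom had a promoter bound by both, whereas most of their signalling partners did. Of 8 ligands and counter-receptors, which stromal and other cells supply, 1 had a promoter bound by both, Il7, which encodes interleukin-7. Its strongest promoter peak ranked at 9.68 and 87.1 with CDK6-WT and at 35.8 and 83.5 with CDK6-K43M, higher in replicate 2 as at Il7r. Kitl, Cxcl12, Vcam1, Fn1 and Madcam1 had no promoter peak in any list, and Kitl and Vcam1 had none over the whole locus. Among 9 signalling partners, 7 had a promoter bound by both, each with a peak in all 4 lists. The exceptions were Jak3, with a promoter peak in CDK6-K43M replicate 1 alone (percentile 1.31), and Ptk2, with 1 in CDK6-WT replicate 2 alone (72.0). Stat5a, a transcription factor downstream of the IL-7 receptor, was highest with a mean percentile of 81.6, followed by the integrin-linked kinase Ilk with 79.8, and the adaptor gene Grb2 carried 1 promoter region unique to CDK6-K43M beside its shared one. Both counts stand beside 41.3% of all genes for bound by both, with 33.2% for all 4 lists.

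Among 22 other receptors and adhesion molecules of blood progenitors, 13 had a promoter bound by both, against 41.3% of all protein-coding genes, and 8 had no promoter peak in any list. The share of all genes without a promoter peak in any list was not counted, but in each single list only 39.4% to 48.5% of them had one. Csf2rb, the common beta chain of the GM-CSF receptor family, had the highest mean percentile (95.1, with 85.2 and 99.9 with CDK6-WT and 95.6 and 99.8 with CDK6-K43M), followed by Selplg, the ligand of P-selectin, with 93.8. The 8 without a promoter peak were Il2ra, Il2rb, Il9r, Csf1r, Il6st, Ccr9, Itgb7 and Cd34. These include Itgb7, the other beta chain that pairs with Itga4. A promoter without a called peak is common among all genes and does not mark these genes out. Il2ra differed from Kit in that 13 regions lay over its locus outside the promoter, whereas Il6st had none.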

How the data were processed

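Anti-HA ChIP-seq peak lists of 4 libraries, grouped by the variant and replicate number in their titles, were analysed. The 2 input samples were not analysed here. As the submitters' processing notes and the study's methods state, the authors used Trimmomatic (0.36) for trimming, BWA (0.7.15) for alignment to mm10, bedtools and SAMtools (1.3.1) for filtering and MACS2 (2.1.0) for peak calling, each library by itself. The deposited lists hold for each peak the fold enrichment (a ratio to local background), the −log10 of the p-value and q-value, a score that is 10 times the −log10 q without decimals, and, as other information, where the summit lies. The deposited p and q values enter the text through ranks and read numbers.

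Overlapping peaks of the 4 lists (1 bp or more) were merged. Promoters came from GENCODE M21, a later release than the M13 of the authors on the same GRCm38 (mm10) assembly. Percentiles are average ranks of −log10 q within a list. Reads at summits were solved from fold enrichment and −log10 p, which fitted 100% of peaks, with more than 1 solution possible for under 1% of peaks in every list. Merging and recovery were tested on simulated data. Depth is therefore known at summits alone, and exact Poisson intervals (95%) cover counting error. Differences between variants were tested with exact permutation tests over the 6 assignments. Scripts ran in Python 3.11.15 (pandas 2.3.3, numpy 2.4.6, pysam 0.24.0, scipy 1.17.1, matplotlib 3.10.9).

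The 9 genes, the lists beside them, the motifs and the alternatives were chosen with earlier results of these data known. By rule, the text names all 9 genes, at each locus the region of highest mean percentile among those outside the promoter and in all 4 lists, every region unique to a variant and, in the lists beside them, the genes without a promoter peak, those with a promoter region unique to a variant and the 2 with the highest mean percentile. Other regions described, and Jak3 and Ptk2, were chosen after their values were seen. The lists beside the 9 genes are counted without 2 genes that are not reported here. Alternatives were stricter thresholds, equal list lengths, wider merging, stricter sharing, other promoter windows, transcripts and flanks, ranking by fold enrichment, the replicate block and leaving out each library.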

Additional observations from a re-analysis of the deposited data

How the results depend on the processing

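Of 91 values under alternatives, over 12 results, 70 stayed in direction and within the set range. At a minimum −log10 q of 10, which leaves fewer peaks, 3 promoters were bound by both in place of 7, 1 had a peak in all 4 lists in place of 5, 13 regions were bound by both in place of 23, 1 was unique to CDK6-WT in place of 0, 0 were unique to CDK6-K43M in place of 1, and 3 and 5 were in the replicate 1 or replicate 2 lists alone in place of 5 and 9. Keeping the top 10000 peaks of every list gave 2 promoters bound by both, 1 with a peak in all 4 lists, 8 regions bound by both, 0 unique to CDK6-K43M and 1 in the replicate 1 lists alone. The CDK6-K43M unique region was also lost (0) at a minimum −log10 q of 5 and when peaks within 500 bp were merged, which left 3 and 5 regions in the replicate 1 and replicate 2 lists alone. With flanks of 50 kb, 15 regions were in the replicate 2 lists alone. Leaving out each library in turn gave 5 to 7 promoters and 17 to 19 regions bound by both, since sharing then needs all 3 lists. The variant difference at the promoter ranged from -8.48 to 43.4 at Il7r, from -11.1 to 6.81 at Itga4, from -8.20 to 41.1 at Itgb1, from -33.5 to -17.7 at Cxcr4 and from -16.4 to -11.2 at Ptprc when a library was left out. Ranked by fold enrichment, it was -2.43 at Ptprc in place of -13.8 and 31.1 at Il7r in place of 17.5. The cause was not tested. Between the variants' replicate 2 minus replicate 1 differences the correlation across 7312 genes was 0.573 (genes are not independent replicates), but with 2 pairs the libraries share only a number. With the replicate block the differences were the same by construction (17.5 at Il7r, -25.6 at Cxcr4, -2.17 at Itga4, 16.5 at Itgb1 and -13.8 at Ptprc), with exact sign-flip p-values of 0.5 to 1, of which 0.5 is the smallest possible. Read numbers at summits, with medians of 15 to 23 per list, limit what can be told from a missing peak.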
